A study of Mus musculus with 6 samples.

Results

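Exonic distal regions are stretches of H3K27ac in AMs (alveolar macrophages) that lay far from every transcription start site (TSS) and were centred on an exon. They were found by merging overlapping peaks of both Cell Signaling libraries and keeping the 29277 merged regions that held a peak of each. Of these, 17657 were distal, with a midpoint over 3 kb from every TSS of protein-coding and long non-coding genes (GENCODE vM21, mm10). The midpoint lay inside an exon in 621 regions, which was 3.52% of the distal regions (95% Wilson interval 3.26 to 3.80%) and 2.12% of the shared regions. By exon class, 219 members were centred on coding sequence, 304 on a 3' untranslated exon, 93 on an exon of a long non-coding RNA and 5 on a 5' untranslated exon. The remaining distal regions were 10749 centred on an intron and 6287 between genes. Intervals here cover counting error over regions only, and regions are not replicates of a condition.

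H3K27ac was measured by HT-ChIPmentation, in which chromatin bound to antibody on beads is tagged with Tn5 transposase, so that few cells are needed. AMs came from the bronchoalveolar lavage of 9-wk-old wild-type C57BL/6J mice and were sorted by flow cytometry, and no library came from treated or mutant animals. There were 2 libraries with an antibody from Cell Signaling (replicates 1 and 2), 1 library with an antibody from Active Motif, and 3 input samples that were not analysed here. The label of the Active Motif library names histone H3 without the residue, and it is taken as H3K27ac from the study's methods. Because the Active Motif antibody has 1 library, its values are given as a description with no test, and the antibody cannot be told apart from sequencing run, depth or sonication, for which the methods name more than 1 instrument. The labels do not say whether both replicates came from separate mice, so their spread may be technical.

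The deposited lists held 56175 peaks in replicate 1, 49139 in replicate 2 and 36364 for the Active Motif antibody, and they give no read depth. As a check of the labelled cell type, all 8 AM markers examined (Siglecf, Itgax, Marco, Chil3, Fabp4, Car4, Ear2 and Pparg) had a shared region within 1 kb of a TSS. A promoter met this definition, called acetylated below, at 3 of 14 endothelial genes, 1 of 15 T and NK cell genes and 4 of 18 alveolar epithelial genes. Replicate 1 peaks touched the promoters of 7 of 12 airway epithelial genes, against 1 of 12 in replicate 2 and 1 of 12 with Active Motif, and the part of such signal in the values below was not tested. A peak list from a cell population cannot tell a mark on few cells from a weak mark on many.

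Acetylation of lysine 27 of histone H3 marks active promoters and active enhancers, and most enhancers lie in introns and between genes. Some enhancers overlap exons, where the same bases both encode a protein or form a transcript and can bind transcription factors. In macrophages, enhancers are opened largely by PU.1, an ETS-family factor, together with C/EBP and AP-1 factors, and AMs add PPARγ and RXR as regulators of their lung-specific program.

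PU.1 letters inside coding sequence are shown first, because they place a macrophage motif within protein-coding bases at the summit of a peak. Windows of 200 bp were taken around the strongest replicate 1 summit of each region and searched on both strands for GAGGAAGT. None of the 10 strongest coding members had PU.1, C/EBP, AP-1 or ETS letters within coding sequence of its window, so the sequences were chosen after these values were seen. In 8 coding members the PU.1 letters lay wholly within coding sequence, and 7 are printed 5' to 3' on the strand that carries them, with the match in capitals (GRCm38, the assembly of mm10).
Kank3, chr17:33817285-33817314, minus strand: tccacgtatttGAGGAAGTccaggtccaag
Amz1, chr5:140749272-140749301, plus strand: cccatctgcttGAGGAAGTtgcatcacctc
App, chr16:85056477-85056506, minus strand: tcgccgaagagGAGGAAGTggctgatgttg
Tpx2, chr2:152881055-152881084, minus strand: cgctcatctgtGAGGAAGTgaaagtcaact
Myo9b, chr8:71291034-71291063, minus strand: aggcagtggatGAGGAAGTtggtgctctgt
Dnajc2, chr5:21768710-21768739, minus strand: agccgtgatgaGAGGAAGTggattgaaaag
Gse1, chr8:120572840-120572869, plus strand: tttgaggagaaGAGGAAGTtcctgaccttc

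The letters ran along the coding strand of the host gene in 4 of these 7 (Amz1, App, Dnajc2 and Gse1) and against it in the other 3. In all of the 7 but Amz1 they lay in the same exon as the midpoint of the region. They were closest to the summit in App, the amyloid precursor protein gene, where the centre of the match was 8 bp from the replicate 1 summit in exon 6 of 18. The App region (chr16:85055715-85057331) had 10.4-fold enrichment over input in replicate 1, 12.9-fold in replicate 2 and 4.95-fold with Active Motif. In Dnajc2, a ribosome-associated chaperone gene, the match was 10 bp from the summit in exon 8 of 16, and the region had 6.15-fold enrichment in replicate 1 and 9.83-fold in replicate 2, with no Active Motif peak. The strongest of the 7 was in Kank3, a regulator of actin, with 17.3-fold enrichment in replicate 1, 27.6-fold in replicate 2 and 10.2-fold with Active Motif. The weakest was in Gse1, with 4.997-fold enrichment in replicate 1, 7.05-fold in replicate 2 and no Active Motif peak. Active Motif peaks were thus present at 4 of the 7 regions (Kank3, Amz1, App and Tpx2). One C/EBP match (TTGCNNAA) lay within an exon of a strong member, the long non-coding RNA 2310001H17Rik, 24 bp from the summit.
2310001H17Rik, chr6:129209341-129209370, plus strand: atattaacctcTTGCCCAAaagctcatctg

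PU.1 letters were present in 8.22% of the coding windows (18 of 219, 95% Wilson interval 5.26 to 12.6%), 4.61% of the 3' untranslated windows (14 of 304, 2.76 to 7.58%) and 7.53% of the non-coding windows (7 of 93, 3.69 to 14.7%). The share was 4.77% at intronic summits, 5.23% at intergenic summits and 4.99% over all distal windows. For a second background, 200 bp windows were placed at the middle of distal exons that had no peak of any library within 1 kb, in genes with an acetylated promoter. Such unmarked exons held the letters in 1.37% of 83327 coding windows (1.29 to 1.45%), 1.08% of 9115 3' untranslated windows (0.883 to 1.31%) and 1.38% of 2600 non-coding windows (1.002 to 1.91%). The members' shares therefore lay near those of other distal regions, and the interval of each member class lay above that of unmarked exons of its class. The windows were placed differently, since many coding summits fell outside an exon. Centred on the region midpoint, which lies in an exon, the share was 6.85% for coding members (4.19 to 11.0%). It was 5.26% for 3' untranslated (3.27 to 8.38%) and 9.68% for non-coding members (5.18 to 17.4%), and these intervals also lay above those of unmarked exons. Among coding members the share was 11.9% where the summit fell in an exon (10 of 84, 6.60 to 20.5%) and 5.93% where it fell outside one (8 of 135, 3.03 to 11.3%), with overlapping intervals. The share of coding windows was 3.81% without replicate 1 (2.32 to 6.19%) and 5.08% without replicate 2 (3.28 to 7.80%), when every peak of the other replicate counted as a region, and 5.13% (2.37 to 10.7%) where peaks of both replicates had to overlap by 50%.

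**Figure D1:**
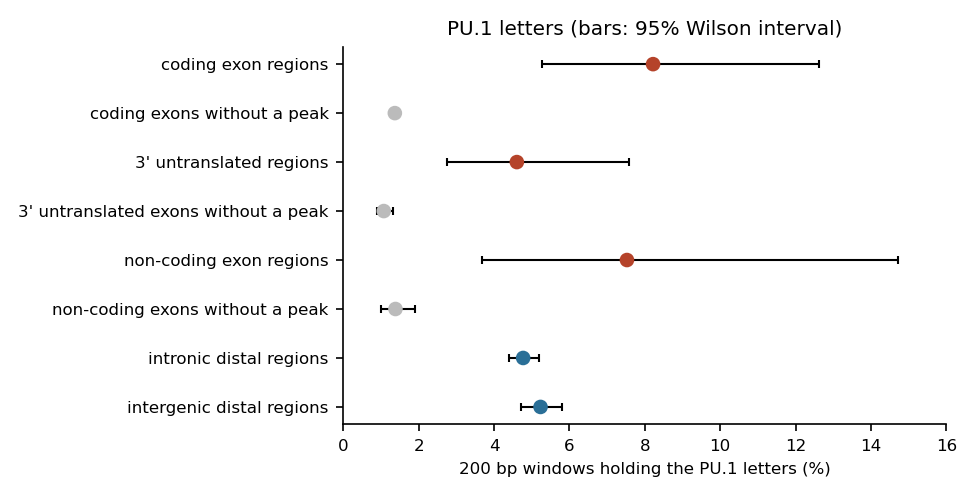
Share of 200 bp windows holding the PU.1 letters GAGGAAGT on either strand (x axis, percent) at replicate 1 summits of exonic members by class (red), at the middle of distal exons of the same class without a peak (grey), and at intronic and intergenic summits (blue). Points are shares and bars 95% Wilson intervals, with coding members at 8.22% and coding exons without a peak at 1.37%. The summit fell outside an exon in 135 of the 219 coding members.

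Letters of other factors were counted in the same windows. AP-1 letters (TGANTCA) were in 9.59% of coding windows, 5.59% of 3' untranslated windows and 10.8% of non-coding windows, against 9.67% of all distal windows and 4.84% of unmarked coding exons. C/EBP letters were in 10.5% of coding windows and 10.9% of 3' untranslated windows, against 11.3% of all distal windows and 8.45% of unmarked coding exons. RUNX letters (TGTGGTT) were in 6.39% of coding windows and 7.24% of 3' untranslated windows, against 6.54% of all distal windows and 3.43% of unmarked coding exons. Intervals of the members overlapped those of intronic and intergenic regions for these 3 motifs, except for AP-1 in 3' untranslated windows, which lay below (3.52 to 8.77%, against 9.18 to 10.3% for intronic and 9.07 to 10.5% for intergenic windows). With the window centred on the midpoint of the region, that AP-1 share was 7.24% (4.83 to 10.7%), and its interval overlapped both. IRF letters (GAAA repeated after 2 bases) were in 6.58% of 3' untranslated windows (4.30 to 9.94%), against 3.999% of all distal windows, but in 2.63% (1.34 to 5.11%) when the window was centred on the midpoint of the region. They were in 0 of 93 non-coding summit windows, which allows a share of up to 3.23%. GC box letters (GGGCGG) were in 9.13% of coding windows (5.99 to 13.7%), against 2.84% of intronic windows (2.54 to 3.17%), 4.69% of intergenic windows (4.20 to 5.24%) and 4.12% of unmarked coding exons (3.98 to 4.25%). A match describes letters only and is neither a bound site nor a cause.

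Base composition followed the exon class. Median GC content was 49.0% in coding windows, 45.5% in 3' untranslated windows and 45.0% in non-coding windows, against 44.5% at intronic and 45.0% at intergenic summits. Unmarked coding exons had a median of 48.5% GC. The mean number of CpG dinucleotides per 200 bp was 4.27 in coding windows, 2.76 in 3' untranslated windows and 3 in non-coding windows, against 2.31 at intronic summits and 4.003 in unmarked coding exons. Where the summit of a coding member fell in an exon, the window held 6.02 CpG on average and 54.8% of windows held 5 or more, against 36.8% of unmarked coding exons.

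How much of a region was exon differed widely between the classes. In 152 of 219 coding members less than 50% of the bases were exonic. The exon at the midpoint had a median length of 182 bp and the region a median width of 1202 bp. Exonic bases, which can come from more than 1 exon, made up a median of 25.6% of the region (interquartile range 11.7 to 54.5%). In 36 of 219 coding members less than 10% of the bases were exonic, and 15 regions lay entirely within exonic sequence. By contrast, 3' untranslated members were mostly exon throughout, with a median exon length of 2706 bp, a median region width of 1148 bp and a median exonic share of 100%, and 163 of 304 lay entirely within exonic sequence (53.6%, 48.0 to 59.1%). Non-coding members were between these, with a median exonic share of 67.8% and 28 of 93 regions entirely exonic.

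The strongest summit gave the same order. In coding members it fell in an exon in 38.4% of regions in replicate 1 (32.2 to 44.9%), 39.7% in replicate 2 (33.5 to 46.3%) and 29.9% of the 107 with an Active Motif peak (22.1 to 39.2%). In 3' untranslated members it fell in an exon in 92.1% by replicate 1, 90.1% by replicate 2 and 84.0% by Active Motif, and in non-coding members in 69.9%, 76.3% and 69.1% of regions by the same libraries. Of the coding members, 132 had their replicate 1 summit in an intron. Both Cell Signaling summits lay in coding sequence in 39 coding members, whose regions were narrower and weaker than those of the other 180. The median width of these 39 was 951 bp, against 1262 bp in the others, and the median fold was 5.38 against 8.84 in replicate 1 and 7.26 against 13.4 in replicate 2. An Active Motif peak was present at 10 of the 39 and at 97 of the 180.

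**Figure D2:**
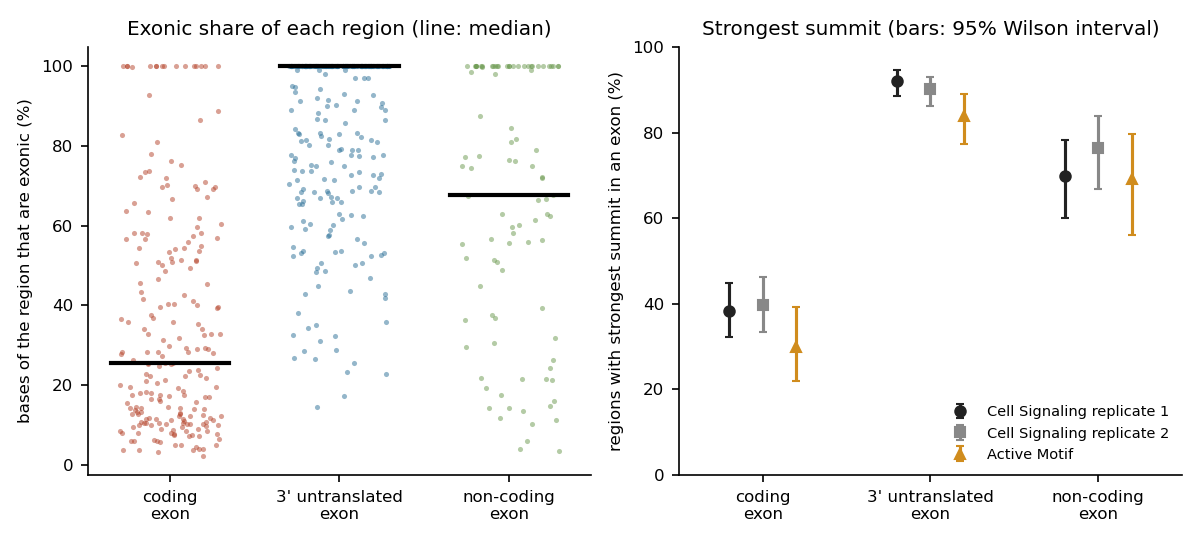
Left, percent of the bases of each region that were exonic (y axis), 1 point per region for the coding, 3' untranslated and non-coding members, with the median as a line at 25.6, 100 and 67.8%. Right, percent of regions whose strongest summit lay in an exon, by class and library, with 95% Wilson intervals; all 3 libraries give coding members the lowest share and 3' untranslated members the highest.

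Some of the 39 members with coding summits in both replicates are named here after their values were seen. They were stronger than the medians of the 39 (5.38 in replicate 1 and 7.26 in replicate 2) and are not typical of them. Hosts best known from other tissues, such as Tnr and Bsn, were not counted among the 39. Tnr encodes tenascin-R, a neural matrix protein. Its region (chr1:159921996-159924594, exon 22 of 23) had 34.1-fold enrichment in replicate 1, 29.9-fold in replicate 2 and 11.1-fold with Active Motif. Bsn encodes bassoon, a scaffold of the presynaptic zone, and its region in a 6642 bp exon (chr9:108108519-108111761) had 20.4-fold enrichment in replicate 1, 26.5-fold in replicate 2 and 9.30-fold with Active Motif. Neither host promoter was acetylated. Lyst, the lysosomal trafficking regulator mutated in beige mice, had an acetylated promoter 87513 bp from its region (chr13:13677131-13678688, exon 23 of 53), where enrichment was 19.99-fold in replicate 1, 26.3-fold in replicate 2 and 6.40-fold with Active Motif. At Spen, a transcriptional repressor gene, the region lay entirely in an 8020 bp exon (chr4:141477184-141478479) with 11.1-fold enrichment in replicate 1, 14.1-fold in replicate 2 and 4.90-fold with Active Motif.

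The strongest coding members were wide regions that lay above the upper quartile of distal regions in every library (15.8 in replicate 1, 21.3 in replicate 2 and 12.2 with Active Motif). For the Cell Signaling libraries this follows from the ranking. Members are ranked here by the lower of both Cell Signaling folds. The first was in Slc9a4, a sodium-proton exchanger gene (chr1:40598859-40603077, exon 3 of 12), with 70.8-fold enrichment in replicate 1, 56.4-fold in replicate 2 and 39.6-fold with Active Motif. Dock5 encodes an activator of the GTPase Rac. Its region (chr14:67809118-67815318) around a 101 bp exon had 56.5-fold enrichment in replicate 1, 51.5-fold in replicate 2 and 21.9-fold with Active Motif, and 5.02% of its bases were exonic. In March4, a membrane ubiquitin ligase gene, the region (chr1:72427732-72429929) was centred on the last of 4 exons and was 58.1% exonic, with 66.5-fold enrichment in replicate 1, 50.2-fold in replicate 2 and 24.7-fold with Active Motif. Il16 encodes a precursor of a chemoattractant cytokine, and its 16411 bp region (chr7:83644074-83660484) had 45.4-fold enrichment in replicate 1, 46.7-fold in replicate 2 and 26.5-fold with Active Motif. The rule sets a peak in both Cell Signaling libraries, and an Active Motif peak was also present at each of the 10 strongest coding members. Also among them were Tmem86a, the N-myristoyltransferase gene Nmt1, the piRNA pathway gene Piwil2, Pcnx, and Clec1b, which encodes the podoplanin receptor CLEC-2. The folds of these 5 regions were between 41.1 and 52.7 in replicate 1, 38.4 and 42.8 in replicate 2, and 13.3 and 25.1 with Active Motif. The Il16, Tmem86a, Clec1b and Il17ra regions also reached within 1 kb of a TSS although their midpoints were distal. In all, 11 of the 621 members did so. Besides these 4 coding members, 4 were of the 3' untranslated, 2 of the non-coding and 1 of the 5' untranslated class.

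Of the 10 strongest 3' untranslated members, Klf6 and Sirpa are on the lists of macrophage genes. Klf6, a zinc finger transcription factor gene active in myeloid cells, had the highest values of all members. Its 18066 bp region (chr13:5858600-5876665), with the midpoint in the last of 4 exons, had 75.7-fold enrichment in replicate 1, 58.8-fold in replicate 2 and 45.1-fold with Active Motif. Each of these folds is that of the strongest peak anywhere in this wide region, which can extend beyond the exon to a promoter. In Clec1a, a C-type lectin receptor gene, 86.6% of the region (chr6:129423323-129429964) was exonic, the summits of both replicates lay in the 3' untranslated exon, and enrichment was 71.1-fold in replicate 1, 44.7-fold in replicate 2 and 29.4-fold with Active Motif. Trps1 encodes a GATA-type repressor, and its region (chr15:50817815-50821439) had 45.7-fold enrichment in replicate 1, 43.2-fold in replicate 2 and 16.7-fold with Active Motif. Nkiras2, an inhibitor of NF-κB signalling, had 51.1-fold enrichment in replicate 1, 43.0-fold in replicate 2 and 14.9-fold with Active Motif (chr11:100622629-100629879). Sirpa encodes the inhibitory receptor for CD47. Its region at the gene's 3' end (chr2:129628100-129635174) had 49.6-fold enrichment in replicate 1, 39.7-fold in replicate 2 and 19.6-fold with Active Motif, with both summits outside exons, and a second, weaker member lay in its coding exon 2 of 8. The other 5 of the first 10 were Itpripl2, Zhx1, the T cell kinase gene Prkcq, Bcas1 and the deubiquitinase gene Usp37, and each also had an Active Motif peak. Enpp1, a nucleotide pyrophosphatase gene, was named for its width of 11362 bp (chr10:24632874-24644235) and had 34.8-fold enrichment in replicate 1, 50.7-fold in replicate 2 and 40.3-fold with Active Motif.

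Among the non-coding members, A630001O12Rik was first (chr8:126843791-126856710) with 64.0-fold enrichment in replicate 1, 56.2-fold in replicate 2 and 37.5-fold with Active Motif. The next was A430078I02Rik (chr6:86470971-86473692) with 51.1-fold enrichment in replicate 1, 46.5-fold in replicate 2 and 23.0-fold with Active Motif. The others of the first 10 had folds between 28.8 and 59.96 in replicate 1, 29.5 and 46.3 in replicate 2, and 13.0 and 26.4 with Active Motif, and the widest after A630001O12Rik were AC132455.3 (9093 bp) and Gm10603 (8111 bp). Of the 93 non-coding members, 48 lay in lincRNAs, 34 in antisense RNAs, 10 in processed transcripts and 1 in a sense intronic RNA, as annotated. Neat1, the scaffold RNA of paraspeckles, was named after its values were seen and had 2 regions with folds of 5.38 and 6.53 in replicate 1, 8.36 and 5.24 in replicate 2, and no Active Motif peak. All 5 of the 5' untranslated members are listed here for completeness: Tmbim1, Sf3b5, St3gal1, A930004D18Rik and Numb. Of these, Tmbim1 was the strongest with 71.1-fold enrichment in replicate 1, 46.9-fold in replicate 2 and 36.9-fold with Active Motif. Its region also contained a TSS, 3015 bp from the midpoint.

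**Figure D3:**
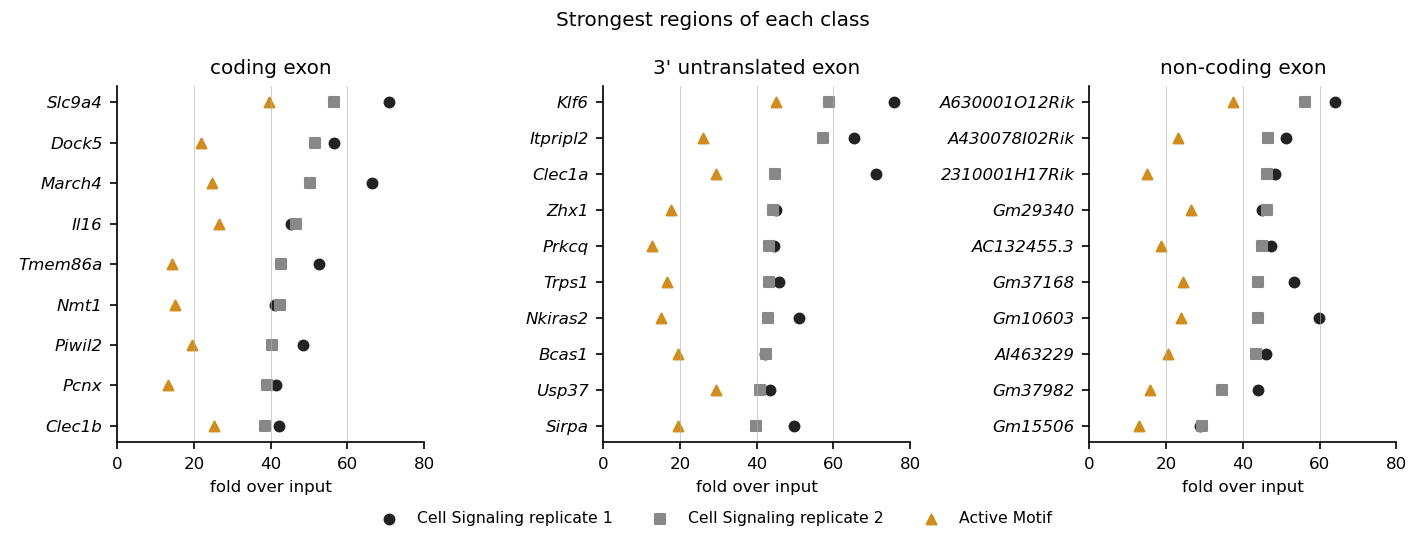
Fold over input (x axis) of regions among the 10 strongest of each exon class (9 of the coding class), ranked by the lower of both Cell Signaling folds, with 1 row per region named by its host gene and 1 symbol per library. Klf6 has the highest value of each library, 75.7, 58.8 and 45.1, and the Active Motif symbol stands left of both Cell Signaling symbols in every row.

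Across all members, fold over input was like that of other distal regions. The median fold of the exonic regions was 7.69 in replicate 1, 12.4 in replicate 2 and 6.77 with Active Motif, against 7.30, 10.9 and 7.36 in the same libraries for intronic regions and 8.07, 12.6 and 7.52 for intergenic regions. The exonic median lay between the intronic and intergenic medians in both Cell Signaling replicates and below both with Active Motif. By class, the median fold in replicate 1 was 8.07 for coding, 6.9996 for 3' untranslated and 8.07 for non-coding members, and in replicate 2 it was 13.0, 11.8 and 12.2. Folds of both replicates went together over the 621 regions, with a Spearman rho of 0.84, a description over regions that share libraries. It was 0.84 for intronic and 0.85 for intergenic regions. Median region width was 1203 bp for exonic, 1244 bp for intronic and 1187 bp for intergenic regions. In replicate 1, 38.2% of members held more than 1 peak, and in replicate 2 it was 2.90%.

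Members in the strongest of 4 groups were wider and less exonic than those in the weakest. A region takes the highest fold of its peaks, so a wide region can gain fold by holding more peaks. Intronic and intergenic regions were not compared in this way. All distal regions were put into 4 groups by the lower Cell Signaling fold, divided at 4.83, 7.30 and 14.99. For coding members the median width was 584 bp in the weakest group and 2533 bp in the strongest. Their median exonic share, weakest to strongest, was 43.3%, 39.4%, 16% and 17.4%. For 3' untranslated members the median width was 483 bp in the weakest and 2576 bp in the strongest group, and the median exonic share was 100% and 78.9%. A wide region can have its midpoint in an exon that holds neither summit, so the class of the strongest members depended on the midpoint rule. Of the 35 members ranked first (10 of each main class and the 5 of the 5' untranslated class), 13 remained exonic when regions were placed by the replicate 1 summit and 10 when placed by the replicate 2 summit.

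Relative to the sequence available, midpoints were less dense in coding exons than in introns. Distal coding sequence outside assembly gaps came to 26.1 Mb and held 8.40 midpoints per Mb (95% Poisson interval 7.33 to 9.59). Distal 3' untranslated sequence held 11.4 per Mb (10.2 to 12.8) and distal non-coding exons 13.4 per Mb (10.8 to 16.5), against 10.8 per Mb of distal intron (10.6 to 11.0) and 4.79 per Mb of intergenic sequence (4.67 to 4.91). The ratio to intron was 0.78 for coding exons (0.68 to 0.89), 1.06 for 3' untranslated exons (0.94 to 1.18) and 1.24 for non-coding exons (1.003 to 1.52). Within protein-coding genes with an acetylated promoter, the density was 12.4 per Mb in coding exons (10.6 to 14.3) and 16.1 per Mb in 3' untranslated exons (14.2 to 18.3), against 23.1 per Mb of intron (22.6 to 23.6). The ratio there was 0.54 for coding and 0.70 for 3' untranslated exons, so that both exon classes lay below intron in genes with an acetylated promoter. Distance from the TSS, which also differed between exons and introns, was not held equal.

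**Figure D4:**
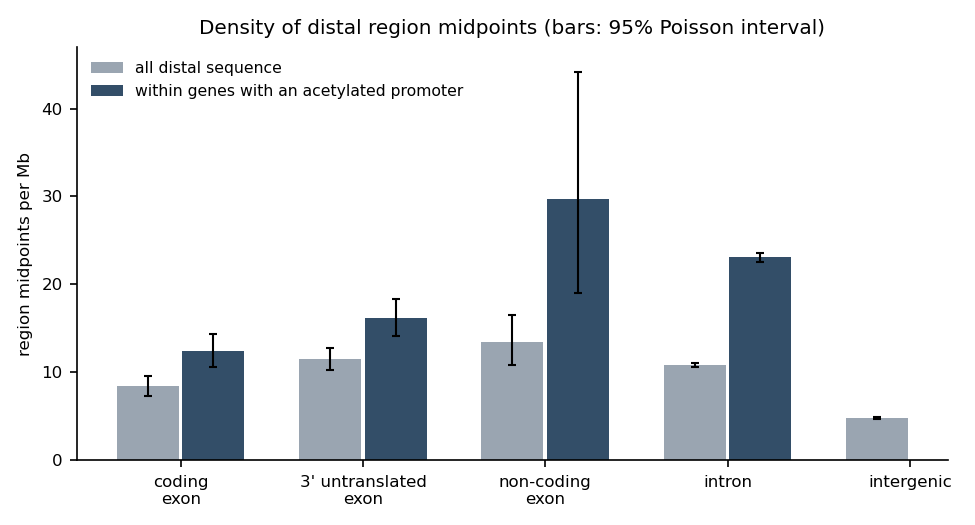
Region midpoints per Mb of distal sequence (y axis) in coding, 3' untranslated and non-coding exons, introns and intergenic sequence, for all distal sequence (light bars) and for sequence within protein-coding genes with an acetylated promoter (dark bars). Error bars are 95% Poisson intervals. Over all distal sequence coding exons stand at 8.40 and introns at 10.8 per Mb, and within genes with an acetylated promoter at 12.4 and 23.1 per Mb.

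Members lay closer to a TSS than other distal regions. The median distance from the midpoint to the nearest TSS was 10244 bp for exonic regions, against 17660 bp for intronic and 18586 bp for intergenic regions. It was 13461 bp for coding, 10466 bp for 3' untranslated and 7085 bp for non-coding members. Between 3 and 5 kb from a TSS were 20.6% of exonic regions, against 10.4% of intronic and 9.42% of intergenic regions. Within the host gene, coding members lay at a median of 71.4% of the gene's length counted from its 5' end, with an interquartile range of 46.4 to 88.8%. In 98 of the 304 3' untranslated members (32.2%) the region ran past the annotated 3' end of the gene. The host's own TSS was the nearest in 133 of these 304 (43.8%).

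Exonic regions on either side of the 3 kb limit had similar values, given here without a test. The 38 regions with midpoints 3 to 3.5 kb from a TSS had a median fold of 6.73 in replicate 1 and 9.57 in replicate 2, and 22 had an Active Motif peak. The 27 exonic regions with midpoints 2.5 to 3 kb away had a median fold of 6.53 in replicate 1 and 12.0 in replicate 2, and 13 had an Active Motif peak. Just inside the limit were regions in Gm33027 (3006 bp), Tmbim1 (3015 bp) and the immediate early gene Fos (3058 bp), the last with 6.15-fold enrichment in replicate 1, 6.89-fold in replicate 2 and 5.54-fold with Active Motif. Just outside were regions in Bhlhe41 (2974 bp), a repressor needed for AM self-renewal, in Capn1 (2966 bp) and in Oplah (2965 bp). The Bhlhe41 region (chr6:145857322-145867334) had 44.6-fold enrichment in replicate 1, 39.2-fold in replicate 2 and 22.2-fold with Active Motif. It also contained a TSS, 2974 bp from the midpoint, and its folds are those of the strongest peak anywhere in it.

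An Active Motif peak overlapped 322 of the 621 members (51.9%, 47.9 to 55.8%), against 51.4% of all distal regions, and so at the background share. By class it overlapped 48.9% of coding (42.3 to 55.4%), 51.3% of 3' untranslated (45.7 to 56.9%) and 59.1% of non-coding members (49.0 to 68.6%), against 50.8% of intronic and 52.4% of intergenic regions. The share followed Cell Signaling strength. In the 4 groups of strength, weakest to strongest, an Active Motif peak was present at 8.28%, 19.6%, 78.9% and 98.6% of exonic regions, against 8.09%, 26.98%, 72.6% and 99.3% of intronic regions and 7.15%, 21.8%, 68.5% and 99.6% of intergenic regions. Within each strength group the interval of the exonic share overlapped that of the intronic share, and in the third group it lay at 72.2 to 84.3%, against 66.3 to 70.7% for intergenic regions. By class, coding members of the second group lay lower, with an Active Motif peak at 3 of 59 (5.08%, 1.74 to 13.9%), against 25.3 to 28.7% for intronic regions, and 3' untranslated members of that group had 23 of 73 (31.5%). Non-coding members of the third group lay higher, at 19 of 20 (76.4 to 99.1%), against 70.9 to 74.3% for intronic regions.

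**Figure D5:**
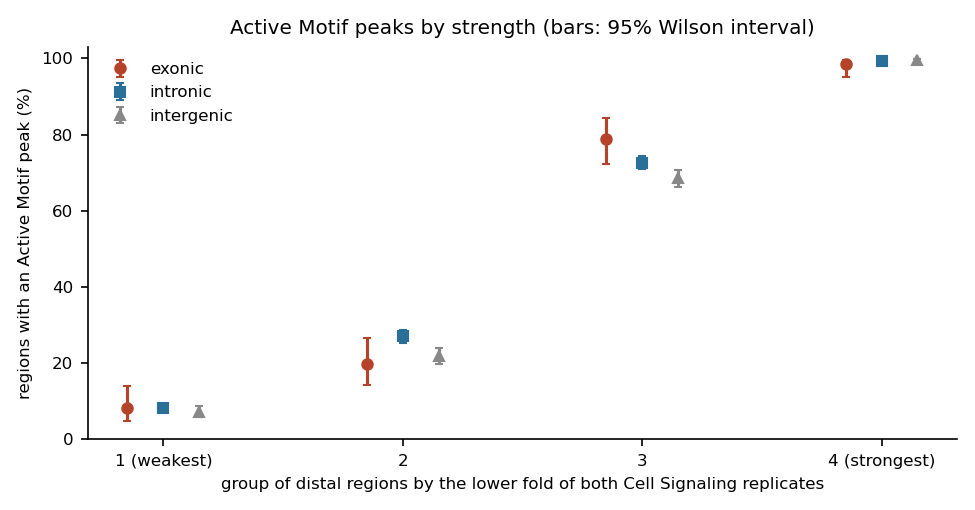
Percent of distal regions with an Active Motif peak (y axis) in 4 groups by the lower fold of both Cell Signaling replicates (x axis, weakest to strongest), for exonic, intronic and intergenic regions. Points are shares and bars 95% Wilson intervals; the exonic share was 8.28% in the weakest and 98.6% in the strongest group.

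The 621 members lay in 585 host genes, of which 546 held 1 member, 37 held 2 and 2 held 3, and 5 members lay where exons of a pair of genes overlap. Of the 498 protein-coding hosts, 395 had an acetylated promoter (79.3%, 75.5 to 82.6%), against 80.4% of the 3471 protein-coding genes hosting an intronic distal region and 46.5% of all protein-coding genes. The share was 79.9% for hosts of coding and 79.8% for hosts of 3' untranslated members. Of the 87 long non-coding hosts, 54 had an acetylated promoter (62.1%, 51.6 to 71.5%), against 48.2% of the 546 long non-coding hosts of intronic regions (44.0 to 52.4%) and 19.3% of all long non-coding genes.

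Members in hosts without an acetylated promoter had folds like those of the rest. There were 104 such regions among the coding and 3' untranslated members, with a median 7.88-fold enrichment in replicate 1, 13.6-fold in replicate 2 and 6.80-fold with Active Motif, against 7.57, 11.7 and 6.40 in the same libraries for the 419 members whose host promoter was acetylated. An Active Motif peak was present at 51.0% of the 104 (41.5 to 60.4%) and 50.1% of the 419 (45.4 to 54.9%). The nearest acetylated protein-coding promoter was further away, at a median of 27947 bp, against 15140 bp. The split itself favours this direction, because the host's own promoter could count only for the 419. The March4 region was 121410 bp from the nearest such promoter (Xrcc5) and the Prkcq region 201554 bp (Pfkfb3). Several of these hosts are known for expression in other cells, but such hosts were not counted in either group. The examples below were named after their values were seen. The folds given for them lay above the medians of the 104 in both Cell Signaling replicates. Gnb3 encodes a G protein subunit of cone photoreceptors and taste cells, and its region (chr6:124833563-124835798) had 44.2-fold enrichment in replicate 1, 34.9-fold in replicate 2 and 11.5-fold with Active Motif. Lin28a, an RNA-binding regulator of let-7 in stem cells, held 2 members in its 3' untranslated exon. The stronger (chr4:134005363-134006448) had 24.99-fold enrichment in replicate 1, 24.7-fold in replicate 2 and 11.5-fold with Active Motif, and the nearest acetylated promoter was that of Dhdds, 5016 bp away. In Cxcr5, the homing receptor of follicular B cells, enrichment was 20.8-fold in replicate 1, 22.7-fold in replicate 2 and 10.8-fold with Active Motif (chr9:44511860-44516110). The files name no target for any region, and the host of a region is its position only.

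Some genes held several members. Il17ra, the IL-17 receptor gene, held 3. The widest of all members was its 21768 bp region (chr6:120462882-120484649) with 8 peaks in replicate 1, 1 in replicate 2 and 16 with Active Motif, and folds of 61.9, 30.9 and 13.4 in the same libraries. Next to it, 2 regions in the 6577 bp last exon had folds of 7.72 and 3.58 in replicate 1 and 11.5 and 3.96 in replicate 2. Syt11, a synaptotagmin gene, held 3 regions within its 3311 bp last exon, with folds of 7.30, 4.61 and 4.61 in replicate 1 and 8.65, 4.998 and 7.48 in replicate 2, and only the first had an Active Motif peak (6.40). Fcgr2b, the inhibitory Fc receptor gene, held 2 in its last exon with folds of 13.1 and 4.09 in replicate 1, 16.8 and 8.73 in replicate 2, and 6.40 and 4.27 with Active Motif. Such neighbours share an exon and are not independent regions.

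Of all protein-coding gene symbols, 2.29% hosted an exonic distal region, and the lists of macrophage genes are given beside that share by count. Hosts were 4 of 22 receptor and signalling genes (Tgfbr2, Csf1r, Tlr2 and Btk), 3 of 20 matched pan-macrophage genes (Csf1r, Sirpa and Mrc1), 3 of 22 actin and adhesion genes (Vcl, Iqgap1 and Dock5), 3 of 30 lipid genes (Lpl, Cpt1a and Ncoa4), 2 of 22 lysosomal genes (Ppt1 and Neu1), 2 of 30 AM core genes (Cpne5 and Ucp3) and 2 of 36 regulators of macrophage identity (Rxra and Klf6). Among other lists, hosts were 2 of 14 endothelial genes (Kdr and Vwf), 1 of 14 matched T and NK cell genes (Cd3d), and 0 in each of the lists of housekeeping (20 genes), alveolar epithelial (18), airway epithelial (12), fibroblast and muscle (14), B cell (11 matched), neutrophil (13) and other organ genes (18).

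The list members ranged widely in strength. Cpne5, a calcium-dependent phospholipid-binding protein gene that is among the genes defining AMs, had a region centred on its last exon (chr17:29154787-29158923) with 42.3-fold enrichment in replicate 1, 38.2-fold in replicate 2 and 20.3-fold with Active Motif. Tgfbr2, the ligand-binding receptor of TGFβ, a niche signal of AMs, had a region in its last exon (chr9:116083556-116085993) with 37.3-fold enrichment in replicate 1, 30.6-fold in replicate 2 and 13.7-fold with Active Motif. The region that overlaps the converging ends of Ap3m1 and Vcl, the vinculin gene (chr14:21031724-21034960), had 43.4-fold enrichment in replicate 1, 36.2-fold in replicate 2 and 11.0-fold with Active Motif, and either gene can be its host. Weaker were Mrc1, the mannose receptor gene, with 8.69-fold enrichment in replicate 1, 16.6-fold in replicate 2 and 5.54-fold with Active Motif, and the Toll-like receptor gene Tlr2, with 6.53 in replicate 1, 11.8 in replicate 2 and no Active Motif peak.

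Below the class median were regions in the last exons of 3 genes from the lists of macrophage genes. Lpl, the lipoprotein lipase gene, had 4.997-fold enrichment in replicate 1 and 5.42-fold in replicate 2. Csf1r, the receptor of the macrophage growth factor CSF-1, whose last exon overlaps Hmgxb3, had 4.61-fold enrichment in replicate 1 and 3.79-fold in replicate 2. Rxra, which encodes the nuclear receptor RXRα studied in these cells, had 4.23-fold enrichment in replicate 1 and 3.53-fold in replicate 2 (chr2:27762135-27762349). None of these 3 had an Active Motif peak, and all lay entirely within exonic sequence.

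The 3 hosts from lists of other cell types are given with their folds. Like all members, they had peaks in both replicates because the rule requires it. Vwf, the von Willebrand factor gene of endothelium and platelets, had a region around exon 15 of 52 (chr6:125602740-125605599) with 20.3-fold enrichment in replicate 1, 27.3-fold in replicate 2 and 9.49-fold with Active Motif. Cd3d, a subunit of the T cell receptor complex, had 16.1-fold enrichment in replicate 1, 17.3-fold in replicate 2 and 5.12-fold with Active Motif. Kdr, the endothelial VEGF receptor gene, had 3.84-fold enrichment in replicate 1 and 5.73-fold in replicate 2, with no Active Motif peak. The promoters of Cd3d and Kdr were not acetylated and that of Vwf was. The part of other cells in these values was not tested.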

How the data were processed

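H3K27ac HT-ChIPmentation peak lists of 3 AM libraries were analysed, 1 list per library and not pooled. Per the study's methods, sorted cells were fixed with formaldehyde and sonicated, reads were trimmed, aligned to mm10 and cleared of duplicates, and peaks were called against input at a q-value of 0.05. The submitters' notes list MACS3, SAMtools, Bowtie2, cutadapt and CASAVA, with bcl2fastq 2.20.0.422 where Cell Signaling antibody was used. The authors deposited for each peak a fold over input (a ratio), −log10 values of p and q, a score and the summit offset. The score and p-value were not used. Peaks on chromosomes 1 to 19 and X were used.

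Overlap needed 1 bp, and a region took the highest fold of its peaks per library. Coding sequence took precedence over 3' untranslated, 5' untranslated and non-coding exons, and genes without established biotype (TEC) were left out. The 16 lists held 319 entries. Named were the 10 strongest per class, list hosts, hosts with 3 members, the 3 widest per class and regions at the 3 kb limit; others were named after their values were seen, and 2 members that fit these choices are not reported here. The members and lists were chosen with earlier results of these data known. Python 3.11 was used with numpy, pandas and scipy, and functions were tested on simulated data. No test between groups was run, because regions are not replicates. Depth is unknown, since the lists hold no counts. Alternatives changed the distance limit, q threshold, overlap, position rule, annotation, class order and replicates.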

Additional observations from a re-analysis of the deposited data

How the results depend on the processing

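Both the number of members and their values moved with the thresholds. The number of members was 314 with a 10 kb limit and 342 where peaks of both replicates had to overlap by 50%, and 1148 to 1165 with 1 replicate left out. The exonic share of distal regions was 4.04% with a 1 kb limit, 2.55% with a 10 kb limit, 2.37% where 50% of bases had to be exonic, 2.97% with protein-coding genes only, and 3.21 to 3.52% with 1 replicate left out. The density ratio of coding exon to intron was 0.64 with regions placed by the replicate 1 summit and 0.63 to 0.71 with 1 replicate left out, and it stayed below 1 under every alternative run. That of 3' untranslated exon to intron was between 0.98 and 1.09, on both sides of 1.

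The Active Motif share was 71.1% with 50% overlap, 47.5% where 50% of bases had to be exonic, and 27.6 to 33.9% with 1 replicate left out, when regions seen in a single replicate also counted. The share of coding members with the summit in an exon was 47.1% with regions placed by the replicate 2 summit, 73.9% where 50% of bases had to be exonic, and 52.5 to 65.2% with 1 replicate left out. For 3' untranslated members it was 93.0 to 95.6% with 1 replicate left out. Placing regions by the replicate 1 summit fixes this share and gave no value, and the 50% exon rule gave no density or host share. Hosts with an acetylated promoter were 63.4% with 50% overlap, which also thins the promoter regions, and 81.4 to 83.1% with 1 replicate left out. Counting TEC genes, an alternative added after the data were seen, gave 624 members. Without replicate 1 the median fold in replicate 2 was 5.79, and the median in replicate 1 was 12.7 with 50% overlap. No paired analysis was possible because no result comes from a test between groups of samples, and the folds were already taken over input. Depth limits which weak regions could pass in each library.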
